A study of Homo sapiens with 2 samples.

Results

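The genes described here encode the ligands and receptors of the TNF superfamily, as expressed in BT549, a mesenchymal-like line of human breast cancer cells. They were chosen by symbol: names of the numbered TNFSF and TNFRSF series, together with a short list of members known by other names, such as FAS, CD40, CD70 and LTBR. The deposited table held 25 such genes, 5 ligands and 20 receptors, among 19029 genes. Of 11 names on the short list it held 6, without TNF, LTA, LTB, FASLG and EDAR. It also lacked the ligands TNFSF10 (TRAIL) and TNFSF11 (RANK ligand). No level can be given for these missing genes. RNA of BT549 cells with the genotype SNHG15 overexpression was compared with RNA of BT549 cells with the genotype vector control, 1 library each, both grown in serum-containing medium. SNHG15 makes a long non-coding RNA and carries a small nucleolar RNA in an intron. The labels do not say whether either culture was a clone or a pool.

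TNF superfamily ligands are mostly membrane proteins that assemble into trimers and can be shed. Each trimer gathers receptor chains, and the receptors carry either a death domain, which recruits FADD or TRADD and can lead to caspase activation, or short motifs that bind TRAF adaptors and lead to NF-kappaB and stress kinases. Decoy receptors bind ligand without a functional death domain. Many ligands are made chiefly by immune cells, while several receptors are widespread on tumour cells and fibroblasts.

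The SNHG15 library held 16570496 counts and the vector library 20799017. Paired values below give the SNHG15 library first. SNHG15 itself was at 1997 CPM (the count scaled by library size, with the TMM method of edgeR) against 23.3 CPM, an 85.6-fold difference. With 1 library per group no difference below has a replicate check and no test across libraries was possible. The 95% intervals of ratios cover counting error only. The line's mesenchymal marker VIM, vimentin, was at 1998 CPM against 1993 CPM. By the rule given below, 1 of 5 mesenchymal markers was higher (background 13.3% of the genes compared) and 3 were lower (background 12.2%). CDH2 was higher, with a ratio of 5.28 (4.12 to 6.82). The lower markers were THY1 (ratio 0.499, 0.487 to 0.512), FN1 (0.555, 0.542 to 0.568) and ZEB1 (0.59, 0.418 to 0.823). VIM was the only marker of the 5 called neither higher nor lower. Of the 3 epithelial markers in the table CLDN7 alone reached a mean of 1 CPM, at 2 and 40 counts, while CDH1 had 12 and 11 counts and KRT19 0 and 23. Of 2 endothelial markers TEK alone did so, at 3 and 74 counts, while KDR had 1 and 1. The B cell marker CD79A had 1 and 6 counts.

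Of the 25 genes, 20 had a mean of at least 1 CPM and were compared. A gene was counted as higher or lower in the SNHG15 library where its interval excluded 1 and its ratio was at least 1.5-fold. By this rule 2 of the 20 were higher, against a background of 13.3% of the 12934 genes compared, and 8 were lower, against a background of 12.2%. The higher share of 10% was near its background and the lower share of 40% was above it, with no test of the list. The higher genes were the ligand TNFSF9 and the soluble decoy receptor TNFRSF11B. The lower genes were the receptors TNFRSF1B, TNFRSF11A, TNFRSF19, TNFRSF12A, CD40, TNFRSF25 and TNFRSF10D and the ligand TNFSF12. The whole interval lay past 2-fold for 2 lower genes, TNFRSF1B and TNFRSF11A (background 2.45%), and for 0 higher genes (background 2.2%). The median log2 ratio of the 20 was −0.20, with 9 genes above 0 and 11 below, beside a median of 0.02 over all genes compared. The members had a median transcript GC content of 56.1%, against 49.2% over all genes compared. With the trend of ratios on GC removed, their median was −0.03, and −0.18 with the median of the 40 nearest genes removed in addition. The median of the receptors alone was −0.38 before and −0.35 after removal of the GC trend. With that trend removed, 7 members were lower (background 11.1%) and 3 higher (background 11.6%). The part of GC content in the ratios was not tested.

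**Figure D1:**
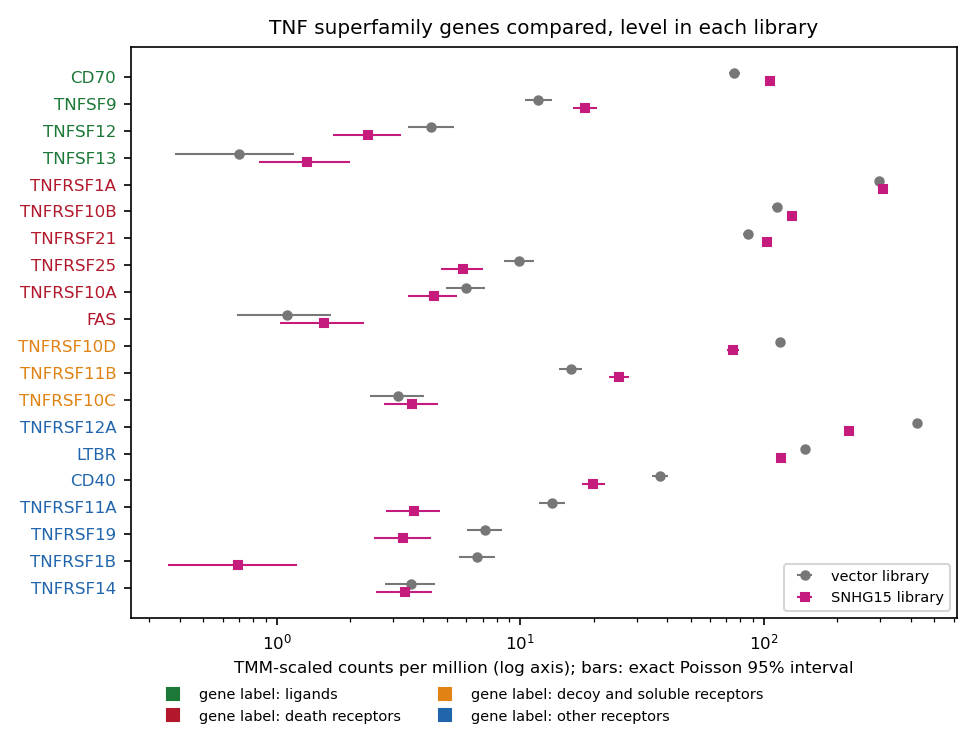
Level of each of the 20 genes compared in the vector library (grey circles) and the SNHG15 library (magenta squares), in CPM on a log axis, with exact Poisson 95% intervals of the count. The symbols of TNFRSF1B lie farthest apart, and those of TNFRSF1A nearly coincide.

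Promoters are printed for the 4 genes that frame the comparison: the pair of TNF receptors, of which one was at a similar level in both libraries and the other much lower, the RANK gene TNFRSF11A, and the higher ligand TNFSF9. They are the 250 bases before the RefSeq start (GRCh38.p14), 5′ to 3′ on the strand of the gene, and capitals mark the GC box GGGCGG on either strand and the TATA box TATAAA. TNFRSF1A lies at chr12:6342077-6342326 (minus strand), TNFRSF1B at chr1:12166741-12166990 (plus), TNFRSF11A at chr18:62325060-62325309 (plus) and TNFSF9 at chr19:6530776-6531025 (plus).
TNFRSF1A: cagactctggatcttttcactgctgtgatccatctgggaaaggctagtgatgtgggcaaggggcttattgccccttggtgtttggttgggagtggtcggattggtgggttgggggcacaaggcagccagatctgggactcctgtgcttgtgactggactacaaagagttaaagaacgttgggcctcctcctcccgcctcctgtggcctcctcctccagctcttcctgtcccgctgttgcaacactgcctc
TNFRSF1B: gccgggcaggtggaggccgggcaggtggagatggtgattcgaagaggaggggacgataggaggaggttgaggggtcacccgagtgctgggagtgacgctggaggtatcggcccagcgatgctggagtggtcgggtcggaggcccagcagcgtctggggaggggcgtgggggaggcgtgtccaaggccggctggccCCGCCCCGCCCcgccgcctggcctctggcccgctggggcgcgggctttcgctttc
TNFRSF11A: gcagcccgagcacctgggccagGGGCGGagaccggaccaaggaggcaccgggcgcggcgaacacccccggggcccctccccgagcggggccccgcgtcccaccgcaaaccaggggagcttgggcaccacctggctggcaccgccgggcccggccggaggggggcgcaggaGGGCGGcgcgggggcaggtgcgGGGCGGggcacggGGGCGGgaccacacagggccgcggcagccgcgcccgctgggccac
TNFSF9: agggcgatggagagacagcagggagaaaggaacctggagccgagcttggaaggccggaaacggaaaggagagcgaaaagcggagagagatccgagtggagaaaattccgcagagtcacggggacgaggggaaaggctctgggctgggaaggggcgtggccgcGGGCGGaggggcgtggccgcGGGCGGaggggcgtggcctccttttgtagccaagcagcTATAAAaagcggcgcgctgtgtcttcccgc
These windows differed in composition. TNFRSF1A had 4 CpG dinucleotides and 0 GC boxes, whereas TNFRSF1B had 22 CpG and 2 GC boxes that overlap by 1 base, TNFRSF11A 30 CpG and 4 GC boxes, and TNFSF9 23 CpG and 2 GC boxes. The median over 35116 promoter windows of this length was 11 CpG, and 42.6% of the windows held a GC box. TNFSF9 alone of the 4 held a TATA box, beginning 30 bases before the start, as did 10.7% of all windows. The kappaB consensus, the binding motif of NF-kappaB, was searched on both strands with the AP-1 motif TGANTCA, and neither had a match in these 4 windows. They were found in 5.21% and 6.57% of all windows. Of the 25 genes, 14 had a window in the table, some with more than 1 start (19 windows), and 3 of the 19 windows held a kappaB consensus, in TNFRSF14, FAS and TNFSF13. A GC box was held by 15 of the 19. Windows of members called lower ran from 4 CpG (a start of TNFRSF19) to 30 CpG (TNFRSF11A). Those of members called neither higher nor lower ran from 4 CpG (TNFRSF1A) to 27 CpG (LTBR). The 4 printed windows thus do not stand for called and uncalled members. A match here is a run of letters and was not read as a site in use.

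Among the ligands, 4 of 5 were compared. CD70, which binds the costimulatory receptor CD27 of T cells, was the most abundant ligand per length, at a deposited FPKM of 48.1 with SNHG15 overexpressed and 31.5 with the vector. It had 1833 and 1508 counts, or 106.2 CPM against 75.5 CPM, and a ratio of 1.41 (1.31 to 1.51), short of 1.5-fold. The interval excluded 1, so the counts differed beyond counting error in a gene not called higher. CD70 was called higher when library totals replaced TMM scaling and when the GC trend was removed.

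TNFSF9 (4-1BB ligand), a costimulator of T cells, was at 18.5 CPM with SNHG15 overexpressed and 11.9 CPM with the vector, from 319 and 237 counts. Its ratio was 1.56 (1.31 to 1.85), and it was called higher under each of 5 scalings. TNFSF9 and CD70 are neighbours on chromosome 19 (hg38), at 6530999 to 6535928 on the plus strand and 6583183 to 6604103 on the minus strand, 47.3 kb apart, and both had more scaled counts in the SNHG15 library. The median log2 ratio of the 40 nearest genes, with the GC trend removed, was 0.03 at both.

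TNFSF12 encodes TWEAK, the ligand of the receptor Fn14. It had 41 counts with SNHG15 overexpressed and 86 with the vector, 2.38 CPM against 4.31 CPM, and was 1.81-fold lower (1.24 to 2.70). TNFSF13 encodes APRIL, a B cell survival ligand, and lies 0.402 kb downstream on chromosome 17. It had 23 and 14 counts, a ratio of 1.90 whose interval (0.938 to 4.0) included 1. TNFSF13 was called higher by library totals, with the GC trend removed and with the neighbourhood median removed in addition. Both genes overlap the readthrough model TNFSF12-TNFSF13 on the same strand, which had 81 and 75 counts. Reads of these 3 models may be divided among them, and the pooled counts of the locus had a ratio of 0.959 (0.764 to 1.2). Pooled with the readthrough model alone, the log2 ratio of TNFSF12 went from −0.83 to −0.19 and that of TNFSF13 from 0.83 to 0.43.

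The 16 receptors compared had a median log2 ratio of −0.38, with 1 higher (background 13.3%) and 7 lower (background 12.2%). The 4 ligands had a median of 0.56, with 1 higher and 1 lower, against the same backgrounds. The difference between these medians has no test here.

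**Figure D2:**
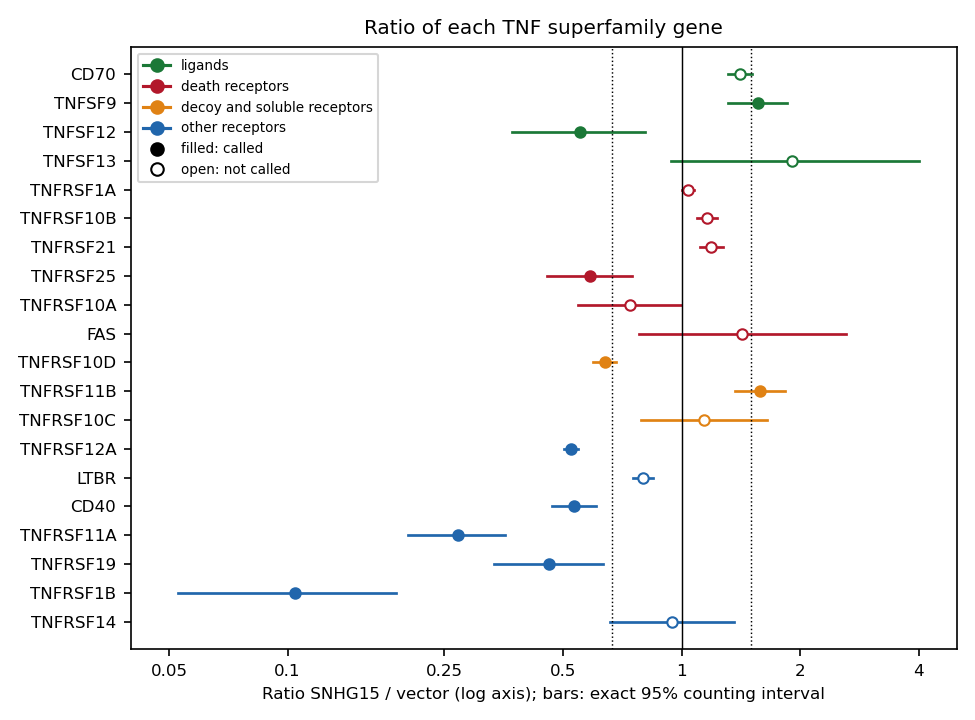
Ratio (SNHG15 over vector) for each gene compared, on a log axis, with exact 95% counting intervals. Filled points were called (interval excluding 1 and at least 1.5-fold, dotted lines), open points were not. All 5 filled blue points, receptors with neither a death domain nor a decoy role, lie left of 1.

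TNF itself, which was not among the genes of the deposited table, signals through a pair of receptors. TNFRSF1A, the widely expressed receptor with a death domain, had 5319 counts with SNHG15 overexpressed and 5931 with the vector, 308.3 CPM against 296.9 CPM. Its ratio was 1.04 (1.0 to 1.08), and the levels nearly coincided. TNFRSF1B, the receptor without a death domain that binds TRAF2 and responds mainly to membrane-bound TNF, had 12 counts against 133. It stood at 0.695 CPM with SNHG15 overexpressed and 6.66 CPM with the vector and was 9.57-fold lower (5.30 to 19.0), the lowest ratio of the 20 genes.

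TNFRSF1B (chromosome 1, 12167003 to 12209228, plus strand) had the 36th lowest log2 ratio (with a prior count of 2) of the 12934 genes. Among 3211 other genes with a mean level from 0.5 to 2 times its own, 10 had a log2 ratio as low. Per length, TNFRSF1A exceeded TNFRSF1B by 20.2 times in the vector library and by 200.9 times in the SNHG15 library, from the deposited FPKM. TNFRSF1B is typical of leukocytes, and of 5 myeloid markers 4 were in the table, with a summed level of 12.5 CPM against 37.5 CPM. CD14 was at 7.71 CPM against 17.4 CPM and CD68 at 3.94 CPM against 19.4 CPM, while ITGAM had 8 and 6 counts and CSF1R 6 and 9. None of these 4 was at 0, but ITGAM and CSF1R were below 1 CPM in both libraries. Of 6 T and NK cell markers, PTPRC included, 0 were in the table. The part of such cells in the TNFRSF1B value was not tested. In RNA of a whole culture, fewer cells of a type and less RNA per cell cannot be told apart.

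The RANK axis is known from bone and mammary gland, where the receptor RANK (TNFRSF11A) drives progenitor growth and the secreted decoy osteoprotegerin (TNFRSF11B) intercepts its ligand. TNFRSF11A (chromosome 18, 62325287 to 62391292, plus strand) had 63 counts with SNHG15 overexpressed and 270 with the vector, 3.65 CPM against 13.5 CPM. It was 3.70-fold lower (2.80 to 4.95) and had the 138th lowest log2 ratio of all genes compared. TNFRSF11B (chromosome 8, 118923557 to 118952200, minus strand) had 438 counts against 321, 25.4 CPM against 16.1 CPM, and was 1.58-fold higher (1.36 to 1.83). Receptor and decoy thus differed in opposite directions. By deposited FPKM the decoy exceeded the receptor by 5.03 times in the vector library and by 29.4 times in the SNHG15 library. TNFRSF11B fell short of 1.5-fold with the GC trend removed (log2 ratio 0.49), whereas TNFRSF11A was called lower under each of 5 scalings.

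The 4 TRAIL receptors lie side by side on chromosome 8, from 23020133 to 23225126, a span of 205.0 kb. TNFRSF10B (DR5), the more abundant of the signalling pair, had 2256 and 2248 counts, 130.8 CPM against 112.5 CPM, a ratio of 1.16 (1.10 to 1.23). TNFRSF10A (DR4), the other signalling receptor, had 76 and 119 counts, a ratio of 0.739 (0.547 to 0.994). Both intervals excluded 1, in opposite directions, and neither reached 1.5-fold. TNFRSF10D (DcR2), a decoy with a truncated death domain, was at 74.4 CPM with SNHG15 overexpressed and 116.6 CPM with the vector, from 1284 and 2330 counts, and was 1.57-fold lower (1.46 to 1.68). TNFRSF10C (DcR1), a decoy anchored by glycolipid, had 62 and 63 counts, with an interval of 0.789 to 1.64.

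Within this cluster the ratios ran from 0.638 (TNFRSF10D) to 1.16 (TNFRSF10B), and the intervals of these genes, which cover counting error only, did not overlap. By FPKM, TNFRSF10B was at 0.422 times the level of TNFRSF10D in the vector library and at 0.769 times in the SNHG15 library. TNFRSF10D was just past the minimum and was not called with library totals (log2 ratio −0.53). TNFRSF10B overlaps RHOBTB2 on the opposite strand, which had 12032 and 9595 counts, and the sources used here do not say whether the libraries kept strand.

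TNFRSF12A (Fn14), the TWEAK receptor and an injury-induced gene of mesenchymal cells, was the most abundant member per length, at a deposited FPKM of 66.3 with SNHG15 overexpressed and 116.7 with the vector. From 3843 and 8493 counts it was at 222.7 CPM against 425.2 CPM and was 1.91-fold lower (1.84 to 1.98). Its share of the summed FPKM of the 25 genes was 25.7% with SNHG15 overexpressed and 40.5% with the vector. The FPKM of TNFRSF12A was 74.8 times that of its ligand gene TNFSF12 in the SNHG15 library and 78.8 times in the vector library. These quotients use the TNFSF12 model alone, at an FPKM of 0.886 with SNHG15 overexpressed and 1.48 with the vector. The readthrough model TNFSF12-TNFSF13 was at 2.69 and 1.99, so the quotients depend on how reads were divided between the models. TNFRSF12A (chromosome 16, 3018445 to 3022383, plus strand) has a GC content of 64.2% and lies among genes with a median log2 ratio of −0.19. With the GC trend and this neighbourhood median removed, its log2 ratio went from −0.93 to −0.48 and it was no longer called. It overlaps CLDN6 on the opposite strand, which had 3 and 0 counts.

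CD40, the receptor of CD40 ligand, known for B cell and antigen-presenting cell activation and also present on carcinoma cells, had 344 counts with SNHG15 overexpressed and 747 with the vector. It was at 19.9 CPM against 37.4 CPM, 1.88-fold lower (1.65 to 2.14), and stayed lower under each of 5 scalings. LTBR, the lymphotoxin beta receptor, which acts through the alternative NF-kappaB route, had 2019 and 2928 counts and was at 117.0 CPM against 146.6 CPM. Its ratio of 0.798 (0.754 to 0.845) excluded 1 without reaching 1.5-fold. LTBR and TNFRSF1A are neighbours on chromosome 12, 32.9 kb apart, and their intervals, which cover counting error only, did not overlap.

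TNFRSF19 (TROY), a receptor of epithelial and neural progenitors, had 57 and 143 counts, 3.30 CPM against 7.16 CPM, and was 2.17-fold lower (1.58 to 3.0). TNFRSF14 (HVEM), which binds LIGHT and the inhibitory receptor BTLA, had 58 and 71 counts, with an interval of 0.657 to 1.36 that allows differences in both directions. All 7 compared receptors without a death domain or decoy role had a log2 ratio below 0 (median −0.93), 5 of them called lower. Over all 12934 genes compared, 6321 were below 0 and 12.2% were called lower. The difference from these shares has no test here. By library totals 6 of the 7 were below 0, as they were with the GC trend removed (median −0.94).

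**Figure D3:**
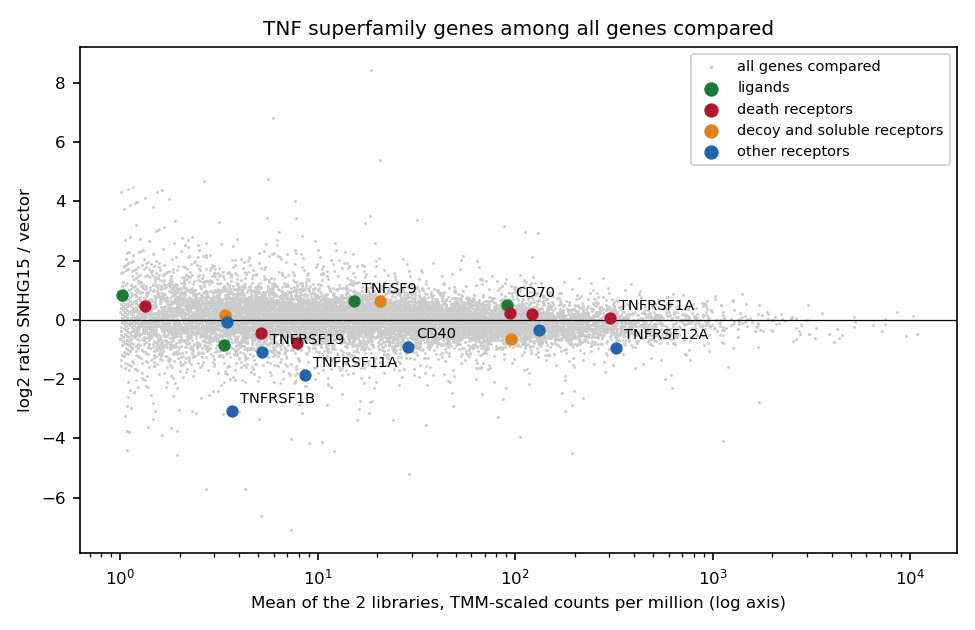
Log2 ratio of each gene compared against its mean level in CPM (log axis), with all 12934 genes in grey and the TNF superfamily genes in colour. TNFRSF1B at −3.07 and TNFRSF11A at −1.86 lie at the lower edge of genes of their level, and most others lie within the grey cloud.

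The other death receptors compared were TNFRSF21, FAS and TNFRSF25. TNFRSF21 (DR6) had 1770 and 1721 counts, 102.6 CPM against 86.2 CPM, a ratio of 1.19 (1.11 to 1.27). FAS, the classical death receptor, was scarce, with 27 and 22 counts and an interval of 0.779 to 2.62. FAS overlaps the actin gene ACTA2 on the opposite strand, which had 3212 and 2471 counts. TNFRSF25 (DR3), the receptor of TL1A, had 100 and 198 counts and was 1.71-fold lower (1.34 to 2.20). It overlaps PLEKHG5 on the same strand, which had a ratio of 0.630 (0.573 to 0.692), so the part of each gene in these reads is uncertain. TNFRSF25 was not called with the GC trend removed (log2 ratio −0.57).

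Across the 6 death receptors compared, 0 were higher (background 13.3%) and 1 was lower (background 12.2%), TNFRSF25, with a median log2 ratio of 0.14. The summed FPKM of the 7 death receptors in the table was 84.2 with SNHG15 overexpressed and 70.7 with the vector. These FPKM are not TMM-scaled. In TMM-scaled CPM, not divided by length, the same 7 genes summed to 553.7 and 513.0. The summed FPKM of the 9 receptors with neither a death domain nor a decoy role was 82.6 against 140.7, with TNFRSF12A at 66.3 against 116.7 of these. By FPKM the order of the members was TNFRSF12A, TNFRSF10D, CD70, TNFRSF1A and TNFRSF21 in the vector library, with CD70 at 31.5, TNFRSF1A at 31.5 and TNFRSF10D at 31.7 hardly apart. In the SNHG15 library it was TNFRSF12A, CD70, TNFRSF1A, TNFRSF21 and TNFRSF10D.

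The 5 genes below a mean of 1 CPM had between 0 and 19 counts in either library. They were TNFRSF13C (BAFF receptor, 9 and 19 counts), NGFR (the p75 neurotrophin receptor, 6 and 8), EDA2R (an ectodysplasin receptor, 1 and 5), TNFSF4 (OX40 ligand, 4 and 0) and TNFRSF6B (the soluble decoy DcR3, 1 and 1). All of their intervals included 1. TNFSF4 had 0 counts with the vector, a library in which 3 counts would equal 0.150 CPM. TNFRSF6B lies within the readthrough model RTEL1-TNFRSF6B, to which 2996 and 5822 counts were assigned (1.68-fold lower, 1.61 to 1.75), and its own 1 count in each library says little of its level. The superfamily also has members under other names, and of EDA, CD40LG, CD27 and RELT the table held RELT, an orphan receptor, at 26.8 CPM against 41.7 CPM (1.55-fold lower, 1.39 to 1.74). Its log2 ratio of −0.63 was −0.52 by library totals, −0.39 with the GC trend removed and −0.14 with the neighbourhood median removed in addition, all short of 1.5-fold.

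Genes that act beside or after the receptors were taken as 6 lists and described by the same counts, to be read against the same backgrounds of 13.3% higher and 12.2% lower. Of 7 TRAF adaptors 6 were compared, with 1 higher and 2 lower and a median log2 ratio of −0.55. TRAF4, an adaptor linked to breast cancer, was 1.78-fold higher (1.62 to 1.95), at 67.7 CPM against 38.1 CPM. TRAF3, which restrains the alternative NF-kappaB route downstream of CD40 and LTBR, was 1.69-fold lower (1.48 to 1.93), and TRAF1, itself an NF-kappaB target, was 1.76-fold lower (1.09 to 2.90) from 27 and 55 counts. TRAF2, an adaptor used by both TNF receptors, was at 97.9 CPM against 99.3 CPM (0.924 to 1.05).

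Of the death-domain adaptors, caspases and necroptosis genes 8 were compared, and 0 were higher and 0 lower. FADD, which links death receptors to caspase 8, had a ratio of 0.759 (0.700 to 0.823), TRADD one of 0.745 (0.657 to 0.844) and CASP8 one of 1.04 (0.875 to 1.24). Among 6 inhibitors of death signalling 1 was lower, TNFAIP3 (A20), a deubiquitinase that ends TNF signalling, at 23.4 CPM against 35.2 CPM (ratio 0.665, just past the minimum), and CFLAR, the caspase 8 inhibitor c-FLIP, had a ratio of 0.847 (0.745 to 0.962). The 15 genes of the ubiquitin and kinase steps to NF-kappaB had 2 higher and 1 lower, with a median of 0.10. They were the kinase CHUK, 1.67-fold higher (1.25 to 2.24), TAB3, 1.81-fold higher (1.18 to 2.82), and the A20-binding protein TNIP2, 2.17-fold lower (1.89 to 2.50).

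Of 6 sheddases and their regulators compared 1 was lower, RHBDF1, an iRhom that matures ADAM17, at 16.3 CPM against 29.4 CPM, while the TNF-releasing protease ADAM17 itself had a ratio of 1.14 (1.01 to 1.29). Of 20 genes known to be induced by TNF, 15 were compared, with 0 higher (background 13.3%) and 8 lower (background 12.2%) and a median of −0.59. The list was chosen with earlier results of these data known, so its shares are a description and not an independent finding. CXCL8 was 2.29-fold lower (1.97 to 2.66), CXCL1 1.90-fold (1.87 to 1.93) and CXCL2 1.86-fold (1.73 to 2.01), all neutrophil chemokines. The others called lower were CCL2, IL6, MMP9, TRAF1 and TNFAIP3. Of these, TRAF1 and TNFAIP3 also stand in the lists above. TNF was not among the genes of the deposited table, and its part in these values was not tested. Other targets had ratios above 1 without being called. ICAM1 had a ratio of 1.19 (1.15 to 1.23), NFKBIA 1.19 (1.11 to 1.28) and NFKB2 1.33 (1.25 to 1.40).

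**Figure D4:**
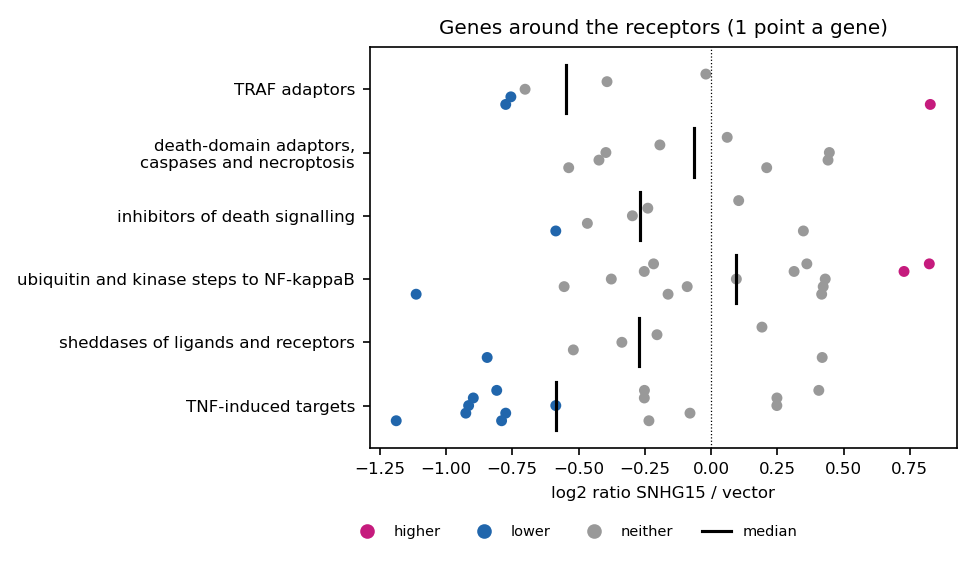
Log2 ratio of each compared gene in 6 lists around the receptors, 1 point a gene, with higher genes in magenta, lower genes in blue, others in grey and the list median as a bar. The TNF-induced targets have 8 blue points and 0 magenta ones, and the death-domain adaptors have only grey points. The lists were chosen with earlier results of these data known.

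In the authors' deposited table, which calls a gene at a log2 FPKM ratio of at least 1 in size and an adjusted p below 0.05, 0 of the 25 genes were called higher (background 4.88% of 19029 genes) and 2 were called lower (background 3.27%), TNFRSF1B (adjusted p 3.43e-13) and TNFRSF11A (2.19e-09). TNFRSF19 missed the deposited ratio threshold at −0.999 with an adjusted p of 0.00346 in the authors' deposited table. Those edgeR p-values rest on an assumed coefficient of variation of 0.1.

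**Figure D5:**
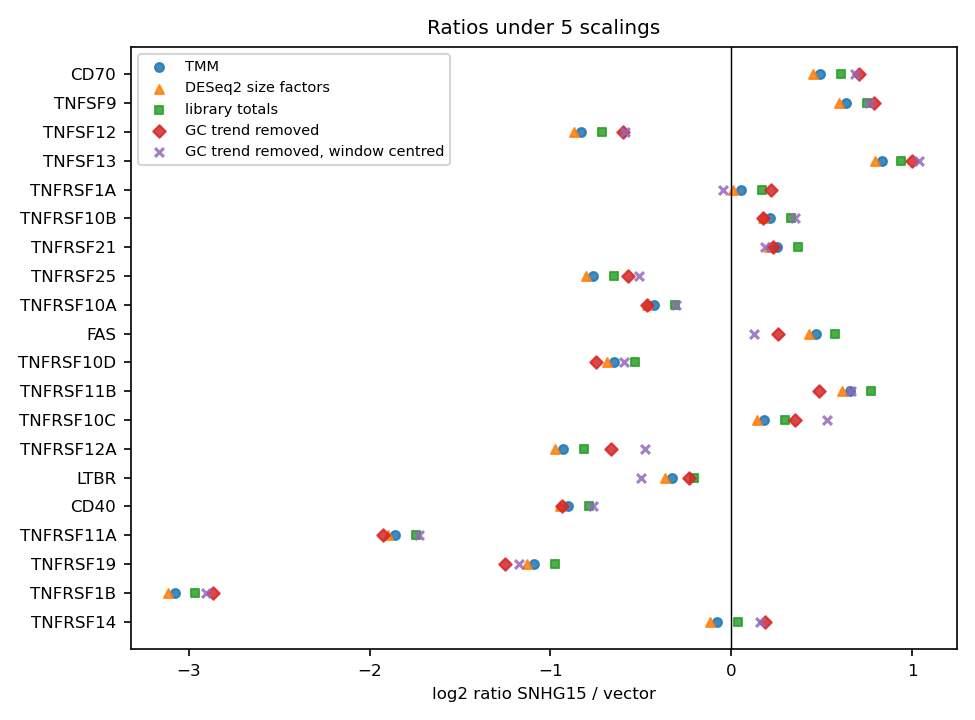
Log2 ratio of each gene compared under 5 scalings: TMM, DESeq2 size factors, library totals, the GC trend removed, and in addition the median of 40 neighbouring genes subtracted. TNFRSF1A and TNFRSF14 change sign among them, and the 10 called genes do not.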

How the data were processed

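The authors' deposited table gave raw whole-number counts per gene, per the file headers, for 1 library of each group, with FPKM values deposited by the authors beside them. The log2 ratios deposited by the authors are ratios of FPKM. The deposited p-values were matched to 4.26e-14 in log10 p by the exact test of edgeR after TMM scaling, at a coefficient of variation set to 0.1. Per the submitters' processing notes, the genome was hg38. Aligner, counter and annotation release are not given in the sources used here.

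TMM factors (edgeR 4.0.16, R 4.3.3) scaled the counts to CPM. Ratios have exact conditional-binomial (Clopper-Pearson) 95% intervals, and log2 ratios a prior count of 2. Reads are not independent molecules, so intervals cover counting error only. The median gene compared had 284 and 315 counts. GC content was that of the longest GENCODE 29 transcript, and its trend was a loess (span 0.5). Of the 25 genes 21 had the same locus in GENCODE 29, and 9 overlap another gene of the table. DESeq2 is version 1.42.0. Promoters came from RefSeq. The functions were tested on simulated data.

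The members and lists were chosen with earlier results of these data known. Every member with a mean of at least 1 CPM is named, and in each list up to 3 genes on either side by the interval bound nearest to 1. The promoters printed, the 5 scarcer members and TRAF2, FADD, TRADD, CASP8, CFLAR, ADAM17, ICAM1, NFKBIA and NFKB2 were named after their values were seen.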

Additional observations from a re-analysis of the deposited data

How the results depend on the processing

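No paired analysis was possible because each group has 1 library. Alternatives were DESeq2 size factors, library totals, removal of the GC trend, window centring in addition, no filter, a minimum of 5 CPM, a prior count of 0.5, FPKM with pseudocounts of 1 and 0.1, no minimum ratio, pooling of TNFSF12 and TNFSF13 with their readthrough model and, chosen after seeing the data, leaving out members that overlap other genes. Library totals raised the median of all genes by 0.12 (log2), and 18.4% of all genes were then higher and 8.93% lower. By library totals 4 members were higher, and 4 with window centring, where 10.4% of all genes were higher and 10.3% lower. The ligands called higher numbered 3 under library totals, as under window centring (3) and removal of the GC trend (3, background 11.6%). With the GC trend removed 0 receptors were higher, and the median of the ligands was 0.75. With no minimum ratio 6 members were higher and 10 lower, a setting for which no share over all genes was computed. With a minimum of 5 CPM 1 member was beyond 2-fold lower and 0 ligands were lower, since TNFRSF1B and TNFSF12 fall below that level. Without members overlapping a gene of either strand, 5 of 12 were lower. No share over all genes was computed for this setting or for the minimum of 5 CPM. The number of members called lower was 7 by library totals and 6 with window centring. The cause of the other shifts was not tested. Of 142 values of single members under these alternatives, 105 lay within their main interval, 37 lay outside it, and 0 of the called members reversed. Low counts gave wide intervals for TNFRSF1B (12 counts in the SNHG15 library), FAS and TNFSF13, and wider ones for TNFRSF6B, EDA2R, TNFSF4, TNFRSF13C and NGFR, which were not compared.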
